A study of Mus musculus with 6 samples.

Results

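The genes described here are the nuclear-encoded subunits of the mitochondrial respiratory chain and of ATP synthase, chosen by their symbols alone. A gene belongs to the set if its symbol starts with Nduf followed by a, b, c, s or v and a number (complex I), if it is Sdha, Sdhb, Sdhc or Sdhd (complex II), or if it starts with Uqcr (complex III), with Cox4 to Cox8 (complex IV) or with Atp5 (complex V, ATP synthase). Each gene was represented by the brightest of its probe sets that are listed for that gene alone. This rule found 81 of the 18193 genes with such a probe set, namely 35 of complex I, 4 of complex II, 8 of complex III, 17 of complex IV and 17 of complex V. Of these, 80 were among the 12614 genes bright enough to test. The exception was Cox8b, the heart and muscle form of a small complex IV subunit, with signals of 22.5, 13.0 and 16.2 in the control arrays and 5.19, 28.5 and 2.09 in the TDP-43 siRNA arrays. Some subunits are outside the rule because their probe sets are also listed for near-identical copies (Ndufs6 and Ndufa11), and Ndufb4 is represented by a dim probe set for the same reason.

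The study used MIN6, a mouse insulinoma line that serves as a model of the insulin-secreting beta cell. Cells were electroporated with 100 pmol of a control siRNA or of an siRNA against TDP-43, an RNA-binding protein encoded by Tardbp, and total RNA was hybridised to one-colour GeneChip arrays, 3 per group. The comparison asks which RNAs differ between cells with the TDP-43 siRNA and cells with the control siRNA, and every difference below is TDP-43 siRNA minus control siRNA on the log2(signal + 12) scale. No label says that the 3 arrays of a group came from separate cultures, so p-values measure only the spread between these arrays, and with 1 siRNA treatment per group a lower Tardbp level cannot be told apart from other effects of that siRNA.

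The respiratory chain passes electrons from NADH (complex I) and succinate (complex II) through ubiquinone, complex III and cytochrome c to complex IV, which reduces oxygen. Complexes I, III and IV pump protons across the inner mitochondrial membrane, and ATP synthase uses the returning protons to make ATP. In beta cells this ATP closes potassium channels in the plasma membrane, the step that couples glucose metabolism to insulin release. Nearly all subunits are encoded in the nucleus, and NRF1 and the ETS-family factor GABP are known regulators of many of their promoters.

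The targeted gene was lower in the library group labelled TDP-43 siRNA. Tardbp had signals of 3748, 3940 and 3699 in the control arrays and of 2257, 2249 and 1836 in the TDP-43 siRNA arrays, a difference of -0.85 (SE 0.08, limma adjusted p = 0.00175). All 5 of its probe sets were lower, by -0.85 to -1.41. Every array had been scaled to the same trimmed mean of 500.003, the median signals lay between 72.3 and 79.97, and the arrays correlated with each other at 0.985 to 0.992. Of the 12 beta cell markers, 10 were measured, with mean signals from 1846 (Nkx6-1) to 21734 (Iapp) and none called with all 6 arrays. Of 8 markers of other islet cells 3 were measured, Gcg (glucagon) among them at a mean signal of 8715, and 3 of 10 acinar and duct markers were, Krt7 at 5467. The 4 of 9 fibroblast, endothelial and immune markers measured had mean signals of 48.6 to 75.3. In control replicate 3 the glycolysis and hypoxia genes stood beside the TDP-43 siRNA arrays rather than beside the other 2 controls, and the main counts and the genes that it moves most are given with and without it.

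The promoters of Sdhb, Atp5h and Ndufv1 show the sequence context of subunits that the results return to. For 65 of the 80 measured members RefSeq (GRCm38.p6) gave 70 promoter windows of 300 bases. The core of the NRF1 site, GCGCATGC on either strand, was in 9 of the 70 windows (12.9%), against 4.98% of 13130 windows of all genes tested. The ETS core CCGGAAG, the core of GABP sites, was in 17 of the 70 windows on either strand (24.3%), against 16.5% of all windows. The motifs do not overlap in letters, and a match is a description of the sequence, not a binding site. The sequences run 5′ to 3′ on the gene's strand from 120 bases before the start to 20 bases after it, with any match in capitals.
Sdhb (chr4:140961151-140961290, plus strand), with the NRF1 core on the opposite strand at position -54 and the ETS core at position 7 when the start is counted as 1: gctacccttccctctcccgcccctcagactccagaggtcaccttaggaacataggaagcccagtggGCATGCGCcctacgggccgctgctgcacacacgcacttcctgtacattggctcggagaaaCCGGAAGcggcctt
Atp5h (chr11:115419900-115420039, minus strand), with the ETS core on the opposite strand at position -38: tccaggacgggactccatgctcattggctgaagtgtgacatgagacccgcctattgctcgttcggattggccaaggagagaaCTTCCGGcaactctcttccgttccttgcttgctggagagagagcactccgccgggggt
Ndufv1 (chr19:4012736-4012875, minus strand), with neither core in these letters: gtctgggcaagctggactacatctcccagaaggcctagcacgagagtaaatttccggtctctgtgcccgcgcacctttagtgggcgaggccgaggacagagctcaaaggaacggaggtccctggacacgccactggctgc

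No subunit gene passed the test, and for most of them the confidence intervals allowed only a small difference. At a limma adjusted p below 0.05, 0 of the 80 members were called, against 94 of all 12614 genes (0.745%), of which 21 were higher and 73 lower. The smallest adjusted p of a member was 0.153, for Ndufv1. At an unadjusted p below 0.05 there were 5 members, all of them lower (Ndufv1, Ndufb1, Sdhb, Cox7b2 and Atp5h). That is 6.25% of the members, and the share over all genes in either direction was 12.6%. Without control replicate 3 there were 10 of the 80 members (8 lower and 2 higher), against 2133 of all 12614 genes (16.9%). Again none of the 80 was called in that fit, against 2.09% of all genes, and their smallest adjusted p was 0.0815 (Cox6a2). The 3 TDP-43 siRNA arrays lay wholly below the 3 controls for 8 members, or 10.0%, against 8.31% of all genes. They lay wholly above for no member, against 9.98% of all genes. In RNA of whole cultures, fewer cells of a kind and less RNA per cell cannot be told apart. The 8 non-overlapping members were Ndufv1, Ndufs7, Sdhb, Sdhd, Cox7b2, Cox6b2, Atp5h and Atp5j2.

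The members' differences were small and mostly below 0. They ran from -0.48 to 0.14 with a median of -0.030, and 61 of 80 (76.25%) were below 0. Over all genes tested the median was 0.017 and 45.1% were below 0, and over the 2499 genes with a mean signal above 2000 the median was -0.00017 and 50.02% were below 0. Most subunits are in that bright range: 70 of the 80 members had a mean signal above 2000, and their differences lay between -0.20 and 0.14 with a median of -0.026, 53 of them below 0. The 95% confidence intervals of all 70 lay within 0.5 of 0 on the log2 scale, and those of 61 lay within 0.25 of 0. Over all genes, 70.5% of intervals lay within 0.5 and 24.2% within 0.25, and the median SE was 0.104 against 0.0545 for the 80 members. Over the 2499 genes with a mean signal above 2000, 96.4% lay within 0.5 and 63.6% within 0.25, against 87.1% within 0.25 for the 70 members. The median SE of those 2499 genes was 0.0655, against 0.0537 for the 70 members. The 10 dimmer members had a median SE of 0.207, and only 2 of their intervals lay within 0.5 of 0. Signals of different probe sets do not rank the genes by RNA amount, so brightness here describes precision only.

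**Figure D1:**
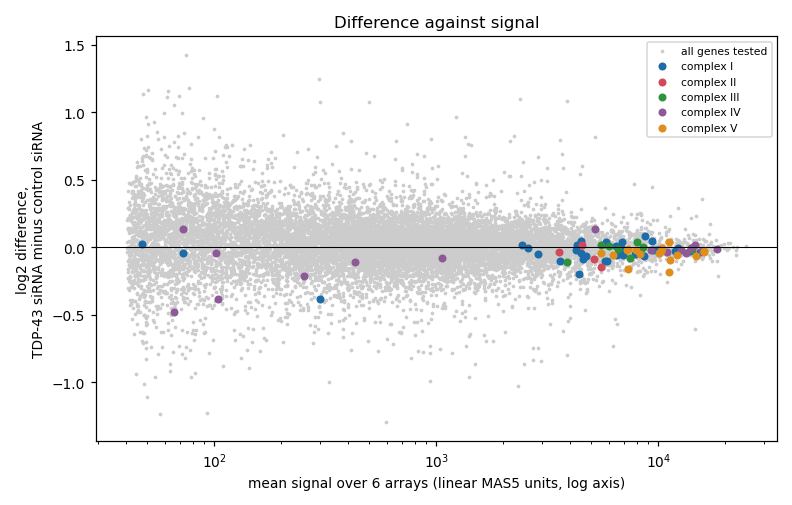
The log2 difference (TDP-43 siRNA minus control siRNA) of each gene tested is plotted against its mean signal over the 6 arrays on a log axis, with all 12614 genes in grey and the 80 subunit genes coloured by complex. The 70 subunit genes with a signal above 2000 lie between -0.20 and 0.14, and the wider differences are those of dim subunit genes.

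Complex I takes electrons from NADH at its flavin site and hands them along iron-sulphur clusters to ubiquinone. Its 35 measured subunits had a median difference of -0.026, 25 were below 0, and none was called. Ndufv1, which carries the flavin and oxidises NADH, had signals of 4845, 4538 and 4760 in the control arrays and of 4203, 4091 and 4014 in the TDP-43 siRNA arrays. The groups did not overlap, and the difference was -0.20 (SE 0.05, 95% interval -0.32 to -0.08, limma adjusted p = 0.153). Its other 2 probe sets were each at -0.11, and its promoter is the one printed above without a match. Among the other core subunits that carry or hold the redox centres, Ndufs1 had 2521, 2704 and 2568 against 2626, 2588 and 2564, a difference of -0.0021 with an interval from -0.13 to 0.13. The control and TDP-43 siRNA arrays of Ndufs1 overlapped fully. Ndufs7 had 3004, 2888 and 2903 against 2875, 2833 and 2773, groups that did not overlap but differed by only -0.052 (SE 0.056). Ndufs8 was at -0.10 (SE 0.11), with arrays that overlapped, and 5 of its 6 probe sets were below 0. Ndufs3, another core subunit, was at -0.065. Ndufv2 was at -0.026 and Ndufv3, a small accessory subunit of the NADH-oxidising arm, at 0.080, with 8338, 7765 and 9377 against 8658, 9145 and 9055. Without control replicate 3, its highest control array, Ndufv3 was at 0.15 (adjusted p = 0.204).

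The accessory subunits of complex I, which surround and stabilise the core, were spread closely around the same values. The 13 with the Ndufa stem had a median of -0.018, the 11 with the Ndufb stem -0.040 and both Ndufc subunits -0.019. Ndufb1 had the lowest value, with signals of 382, 325 and 315 against 316, 249 and 216, and a single array of the TDP-43 siRNA group reached into the control range. Its difference was -0.38 (SE 0.15, 95% interval -0.71 to -0.06, limma adjusted p = 0.308), measured by 1 dim probe set. Ndufa10 had 4000, 3828 and 3465 against 3530, 3509 and 3439, a difference of -0.11 in which control replicate 3 lay within the range of the TDP-43 siRNA arrays. Without that array it was -0.16 (adjusted p = 0.191). Ndufb2 (-0.10), Ndufb3 (-0.085), Ndufa3 (-0.067) and Ndufa5 (-0.061) followed, each with overlapping groups and adjusted p of 0.555 or more. The brightest probe set of the complex was that of Ndufa1, at -0.036. Ndufa4, named for complex I and now placed with complex IV, was at -0.017. Its hypoxia-linked relative Ndufa4l2 was the dimmest, at 29.3, 66.2 and 46.2 against 63.3, 48.1 and 31.7, and its difference of 0.024 had an interval from -0.67 to 0.72. Ndufb4, on its dim probe set, was at -0.043 with an SE of 0.23.

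**Figure D2:**
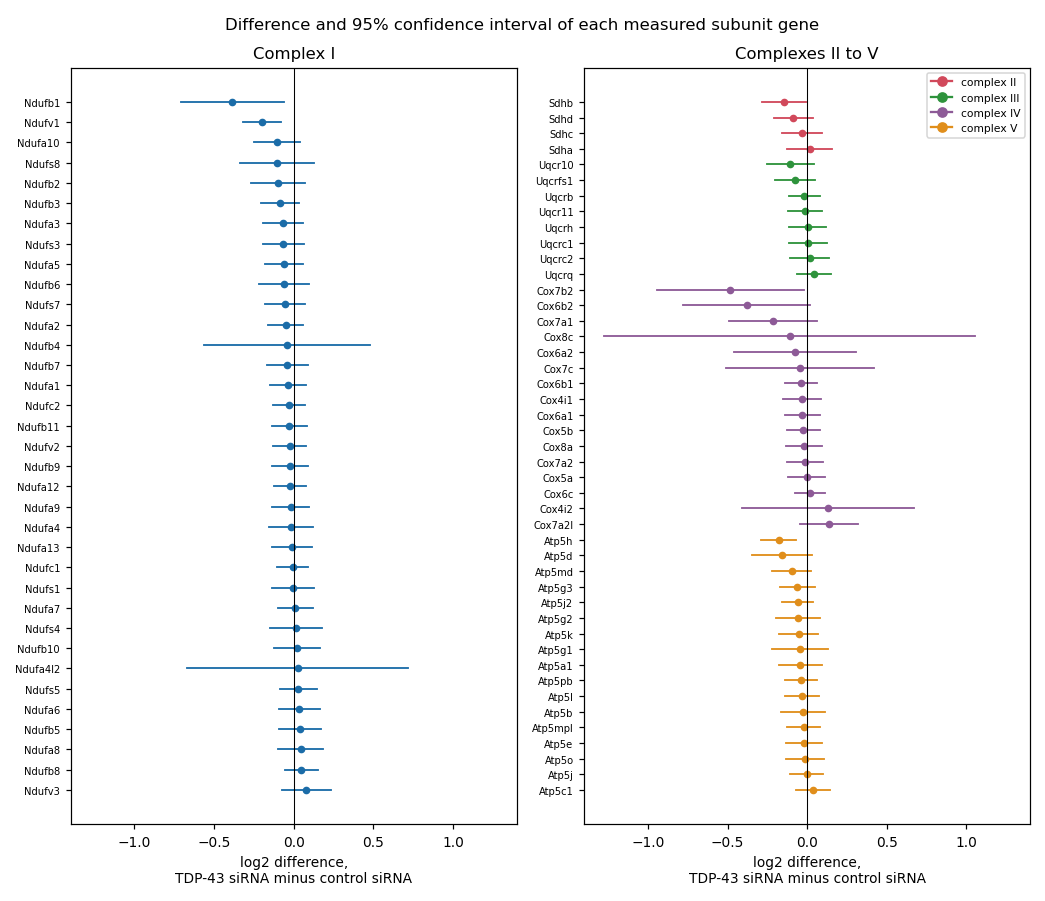
Each point is the log2 difference of a measured subunit gene (TDP-43 siRNA minus control siRNA) and each line its 95% confidence interval from limma, with complex I on the left and complexes II to V on the right, ordered within each complex. Most points lie just left of 0 with narrow intervals, and the widest interval is that of Cox8c, from -1.27 to 1.06.

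Complex II is also an enzyme of the citric acid cycle, succinate dehydrogenase. Its 4 subunits had a median of -0.059, with 3 below 0 and none called. Sdhb, the iron-sulphur subunit, had signals of 6123, 5676 and 5532 in the control arrays and of 5280, 5448 and 4939 in the TDP-43 siRNA arrays. The groups did not overlap, and the difference was -0.15 (SE 0.06, 95% interval -0.28 to -0.0081, limma adjusted p = 0.370). Sdhd, a membrane anchor, had 5523, 5209 and 5228 against 4952, 5186 and 4883, groups that also did not overlap, at -0.087 (adjusted p = 0.552). Sdhc, the other anchor, was at -0.032 and overlapped. Second probe sets of Sdhc and Sdhd were at 0.16 and -0.020. Sdha, the flavin subunit that oxidises succinate, had 4402, 4441 and 4748 against 4292, 4636 and 4817, a difference of 0.015, and the range of the TDP-43 siRNA arrays enclosed that of the controls. A further Sdha probe set had 2616, 2674 and 2602 against 2448, 2544 and 2475, at -0.080 without overlap (limma adjusted p = 0.656). The direction for Sdha and Sdhc thus differed between probe sets.

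Complex III had the median closest to 0 of the complexes, at -0.0062, with 4 of its 8 subunits below 0. Uqcr10, a small accessory subunit, had 4384, 3915 and 3752 against 3689, 3716 and 3765, a difference of -0.11 (SE 0.07, limma adjusted p = 0.560). Control replicate 1 alone stood well above the TDP-43 siRNA arrays of Uqcr10, and its other 2 probe sets were at -0.27 and -0.15. Uqcrfs1, the Rieske iron-sulphur protein, had 8033, 7547 and 7470 against 6977, 7670 and 7204, overlapping groups with a difference of -0.077. The core proteins Uqcrc1 and Uqcrc2 were at 0.0069 and 0.015, with intervals from -0.11 to 0.13 and from -0.11 to 0.14. Uqcrb, the brightest, was at -0.019, Uqcr11 at -0.015, the hinge protein Uqcrh at 0.0023 and Uqcrq at 0.041.

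Complex IV, which hands electrons to oxygen, holds both the most precisely measured subunit (Cox6c, SE 0.042) and the least (Cox8c, SE 0.52), and several of its subunits have tissue-restricted forms. Over all 16 measured members the median was -0.032 with 13 below 0, and over the 9 with a signal above 2000 it was -0.018 with 7 below 0. The widely expressed subunits Cox4i1 (-0.033), Cox5a (-0.0044), Cox5b (-0.024), Cox6a1 (-0.031), Cox6b1 (-0.039), Cox6c (0.019), Cox7a2 (-0.014) and Cox8a (-0.018) all had intervals within 0.25 of 0. The probe set with the highest signal of all members was that of Cox7a2, at 18508 ± 385 (SD, n = 3) in the control and 18343 ± 1051 (SD, n = 3) in the TDP-43 siRNA arrays. Cox7c, although widely expressed, was measured here only by a probe set at a signal of 102, and its difference of -0.043 had an SE of 0.21.

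The lowest values of complex IV were those of forms known from testis or muscle, all with mean signals under 2000. Cox7b2, a testis form, had 70.9, 93.2 and 71.8 against 60.2, 51.3 and 46.8. The groups did not overlap, and the difference was -0.48 (SE 0.21, 95% interval -0.94 to -0.022, limma adjusted p = 0.372). Cox6b2, another testis form, had 128, 96.9 and 131 against 95.1, 75.8 and 93.3, also without overlap, at -0.38 (SE 0.18, adjusted p = 0.417). Cox7a1, the heart and muscle form, had 272, 239 and 314 against 229, 231 and 242, at -0.21 (adjusted p = 0.515) with groups that overlapped. Cox6a2, another heart and muscle form, had 1311, 1242 and 765 against 981, 1075 and 1006. Its difference of -0.076 became -0.32 (adjusted p = 0.0815) without control replicate 3, the lowest of the 6 arrays. Cox8c, a testis form, ranged from 157 to 842 within the control group, and its difference of -0.11 had an SE of 0.52. Cox4i2, a form linked to low oxygen, was at 0.13 (SE 0.24), with 58.6, 64.2 and 81.0 against 105, 55.3 and 71.7.

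Cox7a2l, a factor that joins complexes III and IV into supercomplexes, had the highest difference of all members and the array pattern of the glycolysis and hypoxia genes. Its signals were 4587, 4591 and 5621 in the control arrays and 5281, 5257 and 5680 in the TDP-43 siRNA arrays. Control replicate 3 thus lay among the TDP-43 siRNA arrays, and the other 2 controls lay below all of them. The difference was 0.14 (SE 0.08, 95% interval -0.045 to 0.32, limma adjusted p = 0.527), and 0.23 (adjusted p = 0.0843) without control replicate 3. Its other probe sets were at 0.20 and 0.16, and in both control replicate 3 again lay among the TDP-43 siRNA arrays and the other 2 controls below them. The pattern was not particular to Cox7a2l: Ndufv3 (0.080), Ndufb5 (0.039), Ndufa6 (0.036) and Atp5c1 (0.038) showed a like one. In them the first 2 controls lay below all TDP-43 siRNA arrays, and control replicate 3 lay among or above these. The part of whatever sets control replicate 3 apart in these values was not tested.

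Complex V, ATP synthase, had the largest share of members below 0 of the 5 complexes, at 16 of 17, with a median of -0.043 and none called. Atp5h, subunit d of the peripheral stalk that holds the catalytic head still, had 12008, 11870 and 11578 in the control arrays and 10617, 10807 and 9888 in the TDP-43 siRNA arrays. The groups did not overlap, and the difference was -0.18 (SE 0.05, 95% interval -0.29 to -0.07, limma adjusted p = 0.160). Its second probe set had 10494, 10144 and 10410 against 9037, 9221 and 8732, at -0.20 (SE 0.05, adjusted p = 0.115 over the 23426 probe sets tested), again without overlap. The promoter of this gene is the one printed with an ETS core.

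The other ATP synthase subunits differed by less or varied more. Atp5d, subunit delta of the rotor, had 8613, 6922 and 7537 against 6308, 6945 and 7336, a difference of -0.16 (adjusted p = 0.469) with overlapping groups and a second probe set at -0.017. Atp5md was at -0.098 (adjusted p = 0.502), and Atp5j2, subunit f of the membrane part, was at -0.060 with groups that did not overlap. The catalytic head was close to 0, with Atp5a1 (alpha) at -0.043 and Atp5b (beta) at -0.025, both with intervals within 0.25 of 0. Atp5c1 (gamma), in the rotor, was the only member of the complex above 0, at 0.038. The 3 genes for the proton-carrying c subunit, which make the same mature protein, were at -0.044 (Atp5g1), -0.058 (Atp5g2) and -0.061 (Atp5g3). The rest, Atp5e, Atp5j, Atp5k, Atp5l, Atp5mpl, Atp5o and Atp5pb, lay between -0.053 and -0.0030.

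**Figure D3:**
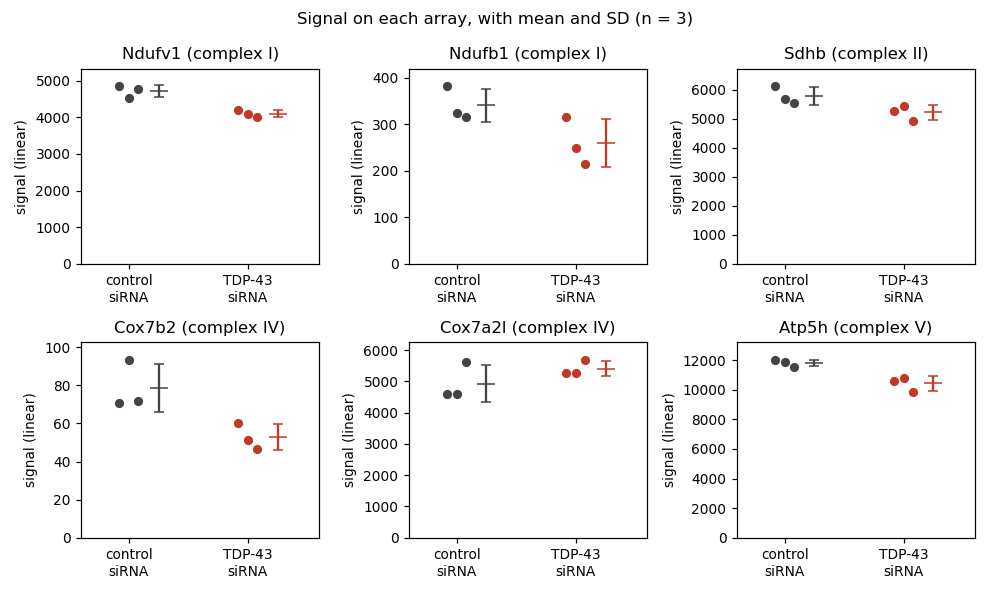
Linear signals on each of the 6 arrays are shown for 6 subunit genes, with axes from 0, points for arrays in replicate order and bars for the mean and SD (n = 3). Control and TDP-43 siRNA arrays are apart for Ndufv1, Sdhb, Cox7b2 and Atp5h, overlap for Ndufb1, and for Cox7a2l the third control point lies among the TDP-43 siRNA points.

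Averaged over members, the arrays of the groups were apart by a small amount. After each gene's mean over the 6 arrays was subtracted, the mean over the 80 members was 0.016, 0.046 and 0.0090 in the control arrays and -0.017, -0.030 and -0.023 in the TDP-43 siRNA arrays. The groups did not overlap. Over all 12614 genes tested the means were -0.035, 0.0067 and -0.0017 against 0.029, -0.0087 and 0.0094, which overlapped. The all-gene medians were -0.014, -0.00069 and 0.0012 against 0.018, 0.0030 and 0.013, without overlap and higher in the TDP-43 siRNA arrays. The part of such array-wide offsets in the member means was not tested. Over the 70 brighter members the means were 0.034, 0.012 and 0.00050 against -0.036, 0.00060 and -0.012, and TDP-43 siRNA replicate 2 was just above control replicate 3. Single complexes were less even. Complex II had 0.069, 0.011 and 0.014 against -0.051, 0.0012 and -0.044, and was the only complex whose groups did not overlap over all its measured members. The 32 brighter members of complex I did not overlap either, at 0.035, 0.014 and -0.0068 against -0.011, -0.014 and -0.017. Complex V had 0.047, 0.023 and 0.0082 against -0.067, 0.011 and -0.022, with the lowest value in TDP-43 siRNA replicate 1. Complex I had 0.025, 0.040 and -0.0098 against 0.011, -0.023 and -0.044, and complex III 0.042, 0.0063 and -0.020 against -0.040, 0.0035 and 0.0082. Complex IV ran from -0.11 to 0.11 over all 16 members, but its 9 brighter members had -0.018, -0.0046 and 0.024 against -0.053, 0.030 and 0.022. The medians of the 5 complexes lay between -0.059 and -0.0062, and the array means of every complex spanned more than that within at least 1 group. Without TDP-43 siRNA replicate 1 the medians of complexes III and IV were above 0, at 0.0074 and 0.0038.

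**Figure D4:**
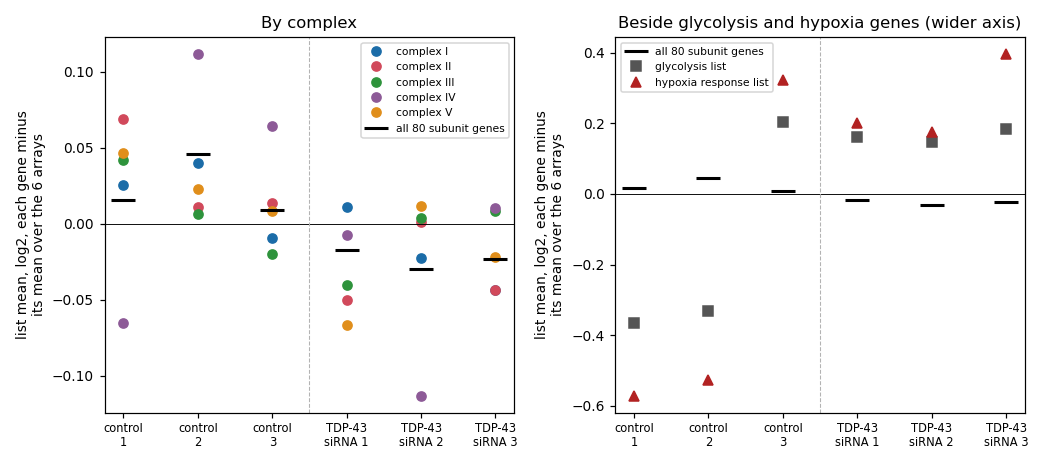
The left panel gives, for each array, the mean over the measured genes of each complex after subtracting each gene's mean over the 6 arrays (log2), with a bar for all 80. The right panel sets the same bars beside the glycolysis and hypoxia lists on a wider axis, where control replicate 3 stands at 0.20 and 0.32, beside the TDP-43 siRNA arrays, while the subunit genes stay within 0.05 of 0.

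Bright probe sets of one gene mostly gave values near each other, but not always of the same sign. Of the 80 members, 46 had more than 1 probe set past the signal limit, which gave 74 further probe sets, 50 of them below 0. The 50 further probe sets with a signal above 2000, from 35 members, differed from the one used by a median of 0.027 and by at most 0.14. Taken without sign, the differences of the 70 brighter members themselves had a median of 0.036. The sign of a small difference could therefore depend on the probe set, as in Sdha and Uqcrc2. No probe set of a member was called when all 23426 single-gene probe sets were tested together. The smallest adjusted p, 0.0569, belonged to a further probe set of Ndufs4, an accessory subunit of complex I, and it was singled out after its values were seen. Its signals were 470, 459 and 467 in the control arrays and 338, 337 and 293 in the TDP-43 siRNA arrays, a difference of -0.52 (SE 0.10). The brightest Ndufs4 probe set had 2578, 2474 and 2183 against 2518, 2416 and 2361, at 0.015, and the other 2 were at 0.025 and -0.049. The log2 gap between the lower-signal probe set at -0.52 and the brightest was -2.34 on average in the control arrays and -2.87 in the TDP-43 siRNA arrays, without overlap (exact permutation test, two-sided p = 0.1, the smallest that 3 against 3 arrays allow). A dim further probe set of Ndufa3 was at 0.42 (adjusted p = 0.285) where the other 2 were at -0.067 and -0.083. Which transcripts these probe sets detect was not analysed here.

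**Figure D5:**
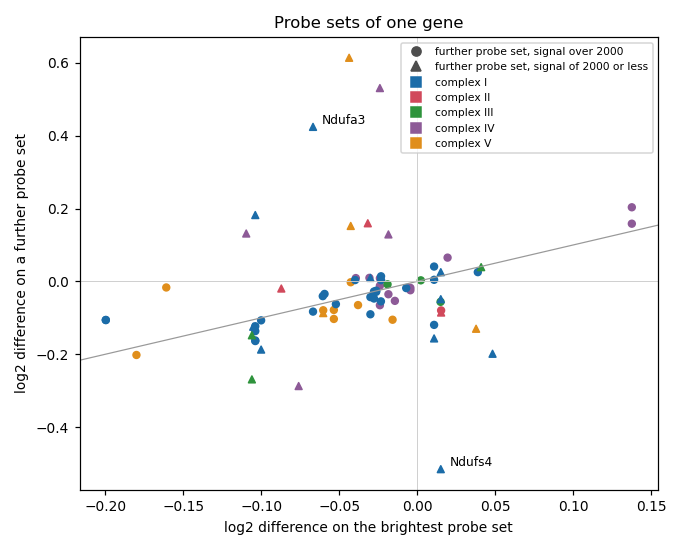
Each point is a further probe set of a subunit gene, with the log2 difference on the brightest probe set of that gene on the x axis and its own on the y axis; the line marks equality. Circles, with signals above 2000, stay near the line, and the points far from it are dim probe sets such as those of Ndufs4 (-0.52) and Ndufa3 (0.42).

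Among the genes that build and serve the chain, 1 passed the test, a regulator. None of the 15 complex I assembly factors was called, with a median of 0.046 and 6 below 0. Ndufaf3 was the lowest in p, at -0.23 (limma adjusted p = 0.189), with Ecsit at 0.24 and Acad9 at -0.29. Of 37 assembly factors of complexes II to V, 33 were measured and none was called, with a median of 0.0022. Ttc19 was at 0.19, Sdhaf3 at -0.19 and Uqcc3 at -0.21. The 12 chain genes outside the symbol rule had a median of 0.0019 and none was called. Among them were Cyc1 of complex III at 0.010, the electron carrier Cycs at -0.022 and the ADP/ATP carrier Slc25a5 at 0.039. Their lowest p belonged to Etfb, at -0.075. The only mitochondrially encoded subunit measured, ND5 of complex I, was at -0.099 (SE 0.08, adjusted p = 0.674) with overlapping groups.

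Of the 13 genes of coenzyme Q synthesis 12 were measured, with a median of -0.0052 and none called. Coq9, which assists a late step of the pathway, had 1436, 1298 and 1393 against 1097, 1160 and 1093, a difference of -0.30 (SE 0.07, limma adjusted p = 0.110) without overlap. Coq8a was at -0.43 and Coq10a at 0.15. Of 18 citric acid cycle genes 17 were measured, with a median of -0.015, 9 below 0 and none called. Fumarase, Fh1, was at -0.18, Pdhb of pyruvate dehydrogenase at -0.14 and Suclg2 at -0.16.

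Of the 20 nuclear regulators of mitochondrial genes, 1 was called, against 0.745% of all genes. Gabpb1, the beta subunit of GABP, had 458, 535 and 511 in the control arrays and 890, 769 and 736 in the TDP-43 siRNA arrays. The groups did not overlap, and it rose by 0.66 (SE 0.10, limma adjusted p = 0.0172). Its second probe set, at signals of 231, 224 and 215 against 191, 227 and 211, was at -0.087, so the rise was seen on 1 of 2 probe sets. Averaging both gave 0.29 (adjusted p = 0.181), and the call was lost in 6 of 18 alternative settings. Gabpa, the DNA-binding partner, was at -0.08. Nrf1 was at -0.095, Tfam at 0.011, Ppargc1a at 0.11, Ppargc1b at 0.40 and Sp1 at -0.24 (adjusted p = 0.167), none of them called. Members with an ETS core in the promoter window had a median difference of -0.040 and those without one -0.027. With the NRF1 core the median was -0.031, and without it -0.037. The difference between these medians was not tested.

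The glycolysis and hypoxia genes stood apart from the chain. Of 22 glycolysis genes 17 were measured and of 20 hypoxia response genes 18, and with all 6 arrays none was called in either list. When control replicate 3 was left out, 11 of the 17 and 14 of the 18 were called, all higher, against 2.09% of all genes in either direction. That array was singled out by these same genes, so the calls without it are not a separate test of them. With all 6 arrays the glycolysis median was 0.32, with 1 gene below 0, and the hypoxia median 0.56, with no gene below 0. The subunit genes had -0.030. The medians were 0.37, 0.82 and -0.037 without control replicate 3. Ldha, which makes lactate from pyruvate, had 1829, 1884 and 4780 in the control arrays and 4367, 4353 and 4547 in the TDP-43 siRNA arrays. Control replicate 3 was thus above all 3 TDP-43 siRNA arrays, the difference was 0.79 (SE 0.29, limma adjusted p = 0.293), and the groups overlapped. It was 1.25 (SE 0.06, adjusted p = 8.12e-05) without control replicate 3. Ero1a (0.60, adjusted p = 0.117), P4ha1 (0.79, adjusted p = 0.119) and Slc2a1 (0.67, adjusted p = 0.153), known targets of HIF, had the smallest p of the hypoxia list, with control replicate 3 between the other controls and the TDP-43 siRNA arrays. Without it they were at 0.81, 1.08 and 0.94, each called (adjusted p = 0.00183, 0.000515 and 0.000515). Eno2 was at 0.39, Slc16a1 at 0.32 and Pfkfb2 at -0.26. Over all 80 subunit genes the mean in control replicate 3 was 0.0090, beside 0.016 and 0.046 in the other controls. It was the lowest control for the 80 and for the 70 brighter members. Over all measured members of complexes I, III and V it lay inside the range of the TDP-43 siRNA arrays. Its part in the subunit differences was not tested.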

How the data were processed

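The authors deposited 1 table of MAS5 signals, linear intensities of 45101 probe sets on 6 arrays, 3 per group. MAS5 is named per the submitters' processing notes (version not given in the sources used here). The platform's annotation named the probe sets, 34945 with a single gene, 932 with several and 9160 not listed, beside 64 controls. Of the single-gene probe sets, 34741 matched RefSeq (GRCm38.p6) by gene ID.

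Signals were kept at the authors' scaling and taken as log2(signal + 12). Leaving out the dimmest 40% by mean log2 value (signals under about 39.8) kept 27022 probe sets, of which 23426 named 1 gene. The brightest was used for each of 12614 genes. The 2 groups were fitted in limma 3.58.1 under R 4.3.3 with lmFit and an intensity-trended eBayes (all 6 arrays, no covariate, two-sided), with Benjamini-Hochberg adjustment over all genes and a threshold of 0.05. The fit was tested on simulated data. Intervals are at 95%.

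Named members were those with the smallest p in each complex, the catalytic, core, brightest, dimmest, tissue-restricted and duplicated subunits, others by level or range, and up to 3 genes by p in each further list, with Cyc1, Cycs, Slc25a5 and the regulators Gabpa, Nrf1, Tfam and Ppargc1a named for their roles. The members and the lists (assembly factors, other chain genes, coenzyme Q synthesis, citric acid cycle, regulators, mitochondrial RNA and import, glycolysis, hypoxia and cell markers) were chosen with earlier results of these data known. Alternatives were other pseudocounts (1 and 42), filters, normalizations, probe set summaries, variance settings and arrays left out. The number of arrays limits the precision. No genome sequence was used beyond the RefSeq promoter windows.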

Additional observations from a re-analysis of the deposited data

How the results depend on the processing

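No subunit gene was called in any of the 18 alternative settings, nor in the main setting at a threshold of 0.1; their smallest adjusted p ranged from 0.0815 (without control replicate 3, where Cox6a2 and Cox7a2l were below 0.1) to 0.456 (without control replicate 1). Members at an unadjusted p below 0.05, 5 in the main setting, numbered from 3 (without control replicate 1) to 10 (without control replicate 3 or both arrays numbered 3), and 8 with array weights. Members below 0 numbered 53 (without TDP-43 siRNA replicate 1) to 65 (without both arrays numbered 3), and 58 with median centring, where 43.5% of all genes were below 0. All 95 medians by complex moved by less than the spread between replicates, and 93 were below 0. The number of all genes called, 94 in the main setting, was 51 with no filter, 12 with no intensity trend, 163 with array weights, 226 without both arrays numbered 3 and 214 at a threshold of 0.1. With single arrays left out it ran from 32 (without control replicate 1) to 264 (without control replicate 3), and the cause was not tested. Without control replicate 3, an alternative for the lists chosen after seeing the data, calls went from 0 to 11 glycolysis genes, 14 hypoxia genes, 1 import gene, 1 beta cell marker and 1 marker of other islet cells. Tardbp, at -0.85, had an adjusted p of 0.0587 with no intensity trend. Of 430 values of 24 subunit genes with tests, 424 kept direction and call. Averaging probe sets turned Ndufa3 to 0.091, Sdhc to 0.064 and Sdha to -0.050. With single arrays left out, Sdha ran from -0.022 to 0.061 and Uqcrb from -0.032 to 0.0033. The replicate block called 127 genes and 0 members (smallest adjusted p 0.132). Deviations of same-numbered arrays correlated at -0.12, -0.14 and 0.24, and those of arrays with different numbers at -0.18 to 0.30. With 3 arrays per group these values cannot decide whether the numbers pair the samples.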

Other observations

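Genes of mitochondrial import, RNA handling and membrane dynamics were measured for 21 of 22 list members. With all 6 arrays none was called, the median was -0.0063, and 11 were below 0. The outer-membrane channel gene Vdac1 had 7074, 6738 and 8228 in the control arrays and 8106, 8663 and 9272 in the TDP-43 siRNA arrays, a difference of 0.24 (limma adjusted p = 0.227) with control replicate 3 inside the range of the TDP-43 siRNA arrays. Timm44, which anchors the import motor, was at 0.23, and the matrix chaperone Hspa9 at 0.18. In both, control replicate 3 lay inside the range of the TDP-43 siRNA arrays. Without that array Vdac1 was at 0.33 (adjusted p = 0.0435, called), Timm44 at 0.30 (adjusted p = 0.151) and Hspa9 at 0.26 (adjusted p = 0.0872). Among the beta cell markers, the zinc transporter gene Slc30a8 had the smallest p, at 0.25 (adjusted p = 0.117) without overlap, followed by Pax6 at 0.18 and Nkx6-1 at 0.09. Of the markers of other cells, Car2 was at -0.76 (adjusted p = 0.373), Col1a2 at -0.63 (adjusted p = 0.306) and Gcg at -0.17 (adjusted p = 0.613). Irx2, Krt7 and Cd68 were also below 0, while Lyz2 (0.26), Kdr (0.20), Cela1 (0.15) and Irx1 (0.073) were above 0. Without control replicate 3, Slc30a8 was at 0.29 (adjusted p = 0.0459) and Gcg at -0.32 (adjusted p = 0.0480). That fit was chosen after the data were seen and called 2.09% of all genes. The calls of Vdac1, Slc30a8 and Gcg in it are therefore not a separate test.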
